A study of Mus musculus with 6 samples.

Results

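The angiopoietins, their TIE receptors and the angiopoietin-like genes were examined in hypoxic heart cell cultures given vehicle or β-sitosterol (β-SITO), a plant sterol. The 9 genes were taken by name from the deposited table of 57010 genes, and the names were selected on earlier results of this same comparison, its measured expression changes, so the values are given as a description without p-values. They are the ligand genes Angpt1 and Angpt2, the receptor genes Tek (which encodes TIE2) and Tie1, and the angiopoietin-like genes Angptl1, Angptl2, Angptl4, Angptl6 and Angptl7. The 6 libraries came from primary neonatal mouse cardiomyocytes (NMCMs) of C57BL/6 mice, 3 cultures labelled HO + Vehicle (V1 to V3) and 3 labelled HO + β-SITO (T4 to T6). The cardiomyocytes had been parted from heart fibroblasts by how fast cells attach, which does not give a pure population. All 6 cultures were kept under hypoxia (HO), and no normoxic library was analysed here. The dose and the hours of treatment for these libraries, and whether cells of several pups were pooled, are not given in the sources used here. Nothing in the labels says that the 3 libraries of a group came from separate isolations, so the errors given here reflect only variation between libraries.

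In blood vessels, angiopoietin-1, which mural and other mesenchymal cells release, activates the receptor tyrosine kinase TIE2 on endothelial cells and keeps the vessel wall quiet. Angiopoietin-2 is made mainly by endothelial cells and can either block or activate TIE2, depending on the setting, while TIE1 binds no angiopoietin with high affinity and acts as a partner of TIE2. The angiopoietin-like proteins have the same coiled-coil and fibrinogen-like domains, with few exceptions, but do not act through the TIE receptors. ANGPTL4 is best known as an inhibitor of lipoprotein lipase, and its gene responds to hypoxia and to the fatty acid sensing PPAR receptors.

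The libraries held 16694734 to 18460522 counts, and levels are given as CPM, counts relative to the TMM-scaled size of the library. A gene was called a DEG at an adjusted p under 0.05 (quasi-likelihood test of edgeR, adjusted by Benjamini-Hochberg over 14799 tested genes) with a change of more than 2-fold, which gave 3380 DEGs or 22.8% of the tested genes. DEGs higher with β-SITO were 12.8% and DEGs lower were 10.1% of the tested genes. The labelled cell type was checked against its markers. All 12 cardiomyocyte markers were detected, with a summed level per kb of exon of 1852 to 2134 in V1 to V3 and of 1592 to 2697 in T4 to T6, where T4 (1592) lay below T5 (2643) and T6 (2697). The 10 fibroblast markers summed to 3770 to 3865 and to 5621 to 5786 on the same scale, so fibroblast transcripts were abundant in cultures labelled as cardiomyocytes. The library names of the HO + β-SITO group carry a suffix that the HO + Vehicle names lack, so treatment and any separate handling of those libraries cannot be told apart.

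In hypoxic NMCMs, 6 of the 9 genes were DEGs higher with β-SITO (Angpt2, Tek, Tie1, Angptl2, Angptl6 and Angptl7) and 1 was a DEG lower (Angptl4). Angpt1 was tested and was not a DEG, and Angptl1 had too few counts to be tested. Angptl6 and Angptl7 passed the filter on low counts through their HO + β-SITO libraries. The 7 DEGs stand among 8 tested genes, where 22.8% of all tested genes were DEGs, and the choice of the names fixes this count. The groups did not overlap for any of the 8 tested genes, as for 70.5% of all tested genes. With no fold-change cutoff, 66.8% of all tested genes passed, and the same number of members, 7, did. The smallest change was that of Angpt1 and the largest that of Angptl7.

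**Figure D1:**
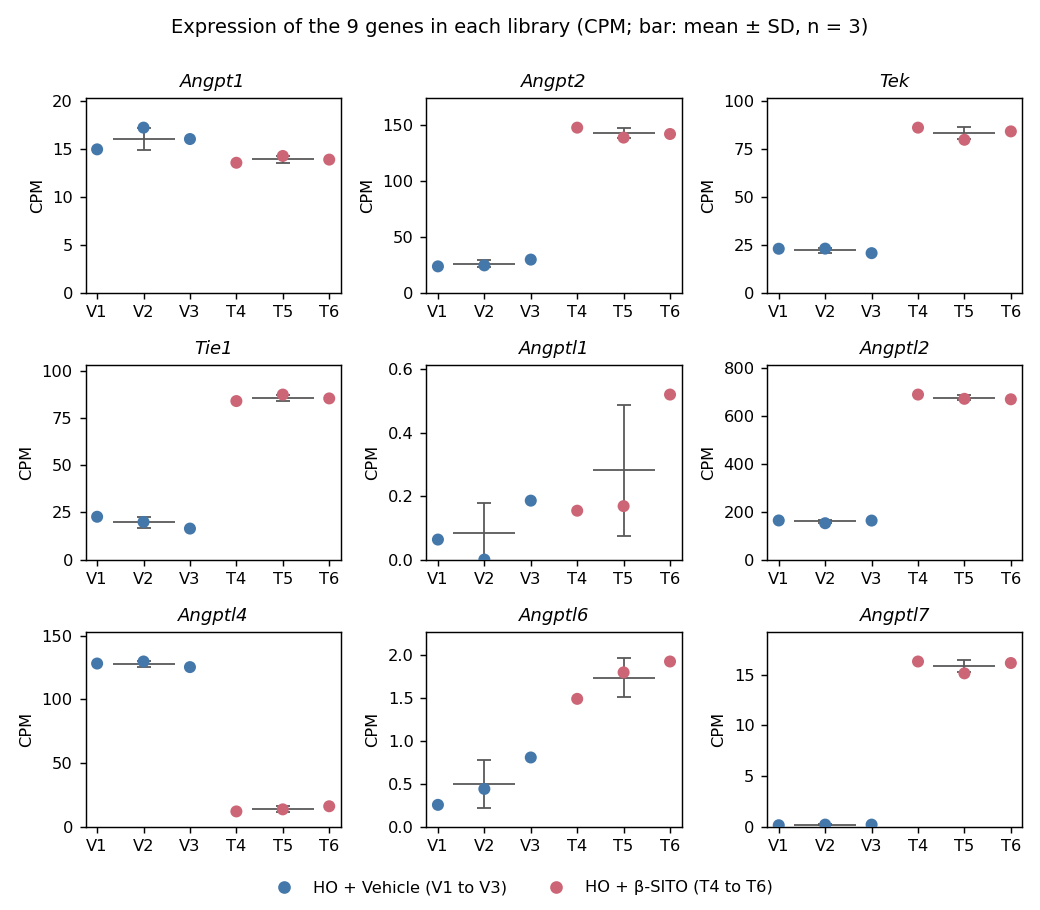
Expression of the 9 genes in each library, as CPM on an axis from 0, with blue points for V1 to V3 (HO + Vehicle), red points for T4 to T6 (HO + β-SITO) and grey bars for the mean ± SD (n = 3). The red points lie above the blue points for Angpt2, Tek, Tie1, Angptl2, Angptl6 and Angptl7, below them for Angptl4 and slightly below them for Angpt1, and the groups overlap for Angptl1.

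Angpt1, the TIE2 agonist, had 15.0, 17.2 and 16.0 CPM in V1 to V3 and 13.6, 14.3 and 13.9 CPM in T4 to T6. The HO + β-SITO libraries were lower in each case by a small margin, and the log2 fold change of -0.21 ± 0.09 (SE, n = 3 per group) did not pass the threshold. Without TMM, on library size only, it was -0.06. Angpt1 lies on chromosome 15 from 42288119 to 42540373 on the minus strand of GRCm39, the build named in the submitters' processing notes.

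Angpt2, the context-dependent ligand, had 23.5, 24.4 and 29.6 CPM in V1 to V3 and 148, 139 and 142 CPM in T4 to T6. Every HO + β-SITO library was well above every HO + Vehicle library, and the mean rose from 25.8 ± 3.28 to 143 ± 4.52 CPM (SD, n = 3), which is 5.53-fold (log2 fold change 2.47 ± 0.08, SE). The balance of the ligand transcripts therefore differed between the groups, and no protein was measured in these libraries. Per kb of exon, the level of Angpt2 over that of Angpt1 was 2.21, 1.995 and 2.60 in V1 to V3 and 15.4, 13.7 and 14.4 in T4 to T6. Angpt2 lies on chromosome 8 from 18740279 to 18791578 on the minus strand, inside the span of Mcph1, a gene of chromosome condensation on the opposite strand. In the GENCODE vM21 annotation the exons of Angpt2 and Mcph1 share 0 bases. Mcph1 itself had 10.2 ± 1.59 and 13.7 ± 1.16 CPM (SD, n = 3), under 2-fold (log2 fold change 0.42 by edgeR, adjusted p = 0.00572).

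Tek had 22.9, 22.9 and 20.6 CPM in V1 to V3 and 86.0, 79.7 and 84.0 CPM in T4 to T6. The mean rose 3.76-fold, from 22.1 ± 1.34 to 83.2 ± 3.24 CPM (SD, n = 3), with a log2 fold change of 1.91 ± 0.07 (SE). Tie1 had 22.7, 19.9 and 16.4 CPM against 84.0, 87.4 and 85.4 CPM. Its mean rose 4.35-fold, from 19.7 ± 3.13 to 85.6 ± 1.73 CPM (SD, n = 3), with a log2 fold change of 2.12 ± 0.09 (SE). The receptor genes thus lay close together in both groups. Per kb of exon, Tie1 over Tek was 0.765 to 0.950 in V1 to V3 and 0.936 to 1.05 in T4 to T6, ranges that overlap. Both lie on chromosome 4, Tek from 94627526 to 94763213 on the plus strand and Tie1 from 118328388 to 118347258 on the minus strand.

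The sequences just before the start sites of the genes that rose were looked at for shared letters. Promoters of 6 of the 9 genes were found by symbol in a RefSeq table built on GRCm38.p6, and Angpt1, Angpt2 and Angptl4 were not among them. The 250 bases before the start are shown for the receptor genes, for Angptl2, the most abundant of the 9 in the HO + β-SITO group, and for Angptl7, the gene with the largest change. Capitals mark matches on either strand. AGGAAG and CCGGAA are forms of the site for ETS factors, which are active in endothelial genes. TGGGAA is the core of the RBPJ site of Notch signaling. The GGAA that each ETS form holds was not searched alone, and it also stands outside the capitals.
Tek (chr4:94739039-94739288, plus strand): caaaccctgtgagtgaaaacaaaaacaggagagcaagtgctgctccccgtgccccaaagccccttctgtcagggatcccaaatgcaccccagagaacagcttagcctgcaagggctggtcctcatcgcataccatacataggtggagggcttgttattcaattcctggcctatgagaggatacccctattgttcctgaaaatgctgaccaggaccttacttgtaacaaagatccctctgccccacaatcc
Tie1 (chr4:118489850-118490099, minus strand): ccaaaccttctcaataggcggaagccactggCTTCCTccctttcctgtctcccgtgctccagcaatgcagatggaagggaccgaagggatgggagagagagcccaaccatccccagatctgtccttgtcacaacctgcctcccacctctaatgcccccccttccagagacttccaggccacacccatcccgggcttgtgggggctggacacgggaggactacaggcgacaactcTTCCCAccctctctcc
Angptl2 (chr2:33215711-33215960, plus strand): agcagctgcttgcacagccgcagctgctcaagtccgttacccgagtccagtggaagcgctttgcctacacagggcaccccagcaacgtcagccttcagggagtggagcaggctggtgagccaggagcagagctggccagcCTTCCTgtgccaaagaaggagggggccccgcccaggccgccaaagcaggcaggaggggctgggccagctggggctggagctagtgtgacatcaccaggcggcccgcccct
Angptl7 (chr4:148500463-148500712, minus strand): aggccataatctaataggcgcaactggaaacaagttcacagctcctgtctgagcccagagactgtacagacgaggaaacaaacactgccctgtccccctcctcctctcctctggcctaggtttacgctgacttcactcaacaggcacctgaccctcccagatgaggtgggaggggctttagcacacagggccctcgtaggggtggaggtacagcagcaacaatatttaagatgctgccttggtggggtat
A marked ETS form stood once in the Tie1 window, 219 bases before the start, and once in the Angptl2 window, 110 bases before it. TGGGAA stood once in the Tie1 window, 16 bases before the start. The windows of Tek and Angptl7 held none of the marked motifs. Of 32851 promoters of this length in the table, 38.2% hold at least 1 of these ETS forms and 21.6% hold TGGGAA. Further motifs were searched on both strands in these 4 windows and in those of Angptl1 and Angptl6, and none was found. They were AGATAA for factors of the GATA family, which 10% of all promoters hold. For the hypoxia-inducible factor they were ACGTG and, as the other form, GCGTG, at least 1 of which is in 38.6%. The STAT motif TTCNNNGAA is in 7.0%, the interferon-stimulated response element in 3.0% and the TATA box TATAAA in 12.4%. These motifs can overlap each other and were counted separately. The Angptl6 window held 1 of these ETS forms. No searched motif stood in all 6 windows, which says only that these letters are not there. The number of CG dinucleotides was 2 for Tek, 6 for Tie1, 9 for Angptl2 and 4 for Angptl7, against a median of 6 over the table.

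The TIE receptors and Angpt2 were read beside a list of 20 endothelial markers, since these genes are best known in endothelial cells. That list, like the others here, was chosen with earlier results of these data known, so its counts are a description. Of these markers 17 were DEGs higher and 1 was a DEG lower with β-SITO, against 12.8% and 10.1% of all tested genes, and their median log2 fold change was 2.02, against -0.01 over all tested genes. The rises ran from 1.05 for Cldn5, a tight junction gene, to 4.09 for Vwf, which encodes von Willebrand factor, and those of Tek, Tie1 and Angpt2 lay within this range. Nos3, the endothelial nitric oxide synthase, rose from 3.57 ± 0.70 to 28.8 ± 3.74 CPM (SD, n = 3; edgeR, adjusted p = 3.08e-11). Cdh5, which encodes VE-cadherin, had a log2 fold change of 1.84 (adjusted p = 1.13e-11), and Pecam1 had 1.84 (adjusted p = 6.54e-13). In bulk libraries, more cells of a type and more RNA per cell cannot be told apart, nor can fewer cells and less RNA per cell.

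Set against single endothelial markers, the ratio of Tek overlapped between the groups and those of Tie1 and Angpt2 to Cdh5 did not. Tek over Cdh5 was 0.258 to 0.313 in V1 to V3 and 0.266 to 0.325 in T4 to T6, and Tek over Pecam1 was 0.395 to 0.487 and 0.438 to 0.488. Tie1 over Cdh5 was 0.224 to 0.272 and 0.292 to 0.317, a mean ratio 1.22-fold higher with no overlap. Angpt2 over Cdh5 was 0.265 to 0.403 and 0.464 to 0.558, 1.53-fold higher and also with no overlap. The sum of all 20 markers differed less than these genes did, with 1333 to 1491 CPM in V1 to V3 and 1574 to 1619 CPM in T4 to T6, and Flt1 and Eng made up 75.5% to 76.5% of it in V1 to V3 and 31.5% to 33.5% in T4 to T6. Relative to that sum, Tek was at 1.48% to 1.72% and 4.92% to 5.43%, Tie1 at 1.183% to 1.52% and 5.30% to 5.43%, and Angpt2 at 1.58% to 2.13% and 8.57% to 9.33%, with no overlap. Flt1, which encodes VEGF receptor 1, fell from 533 ± 48.5 to 104 ± 8.87 CPM (SD, n = 3; log2 fold change -2.36, adjusted p = 6.54e-13), and Eng, a co-receptor of TGF-β, had a log2 fold change of -0.39.

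**Figure D2:**
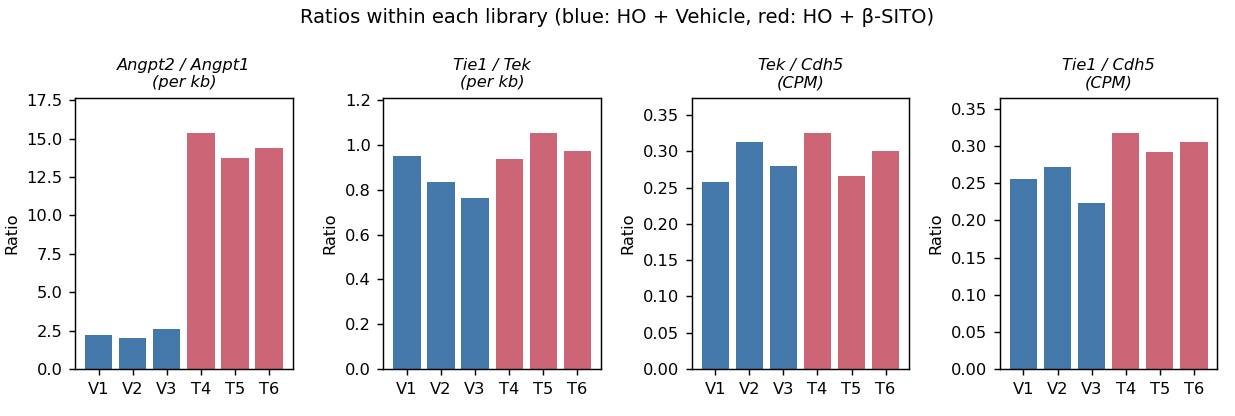
Ratios within each library, on axes from 0, with blue bars for V1 to V3 (HO + Vehicle) and red bars for T4 to T6 (HO + β-SITO). Angpt2 over Angpt1 is 1.995 to 2.60 in blue and 13.7 to 15.4 in red, while Tie1 over Tek and Tek over Cdh5 overlap between the groups and Tie1 over Cdh5 is slightly higher in red.

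Other genes around TIE2 went both ways. Of 19 tested genes on a list of TIE2 signaling and its regulators, 4 were DEGs higher, 3 were DEGs lower and 12 were not DEGs, with a median log2 fold change of 0.11. Those shares are 21.1% higher and 15.8% lower, against 12.8% and 10.1% of all tested genes. Ptprb encodes VE-PTP, the phosphatase that removes phosphate from TIE2, and it rose from 26.6 ± 1.20 to 123 ± 7.20 CPM (SD, n = 3; log2 fold change 2.21, edgeR, adjusted p = 2.59e-13). Ptprb over Cdh5 had a mean of 0.342 ± 0.05 in the HO + Vehicle group and 0.438 ± 0.04 with β-SITO (SD, n = 3). Dok2, a docking protein that binds activated TIE2, changed by 1.71 on the log2 scale (adjusted p = 1.73e-08). The other increases were Klf2, a transcription factor of resting endothelium (1.68), and Svep1, an extracellular matrix protein that binds TIE1 (1.63). Among the decreases, Tnip2 encodes ABIN2, an inhibitor of NF-κB that binds TIE2, and had a log2 fold change of -1.55 (adjusted p = 3.31e-11). Adam17, a sheddase of membrane proteins, had -1.20 (adjusted p = 8.89e-11), and the adaptor Nck1 had -1.04. The shared downstream genes Pik3ca (0.13), Akt1 (0.11) and Shc1 (0.06) did not pass the test, and Foxo1, the transcription factor that AKT restrains, had 0.95, below 2-fold. Others on the list had an adjusted p under 0.05 but also stayed below 2-fold. They include Pik3r1 (-0.30, adjusted p = 0.000441), Ptpn11 (-0.22, adjusted p = 0.00775) and Foxo3 (0.26, adjusted p = 0.00115).

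**Figure D3:**
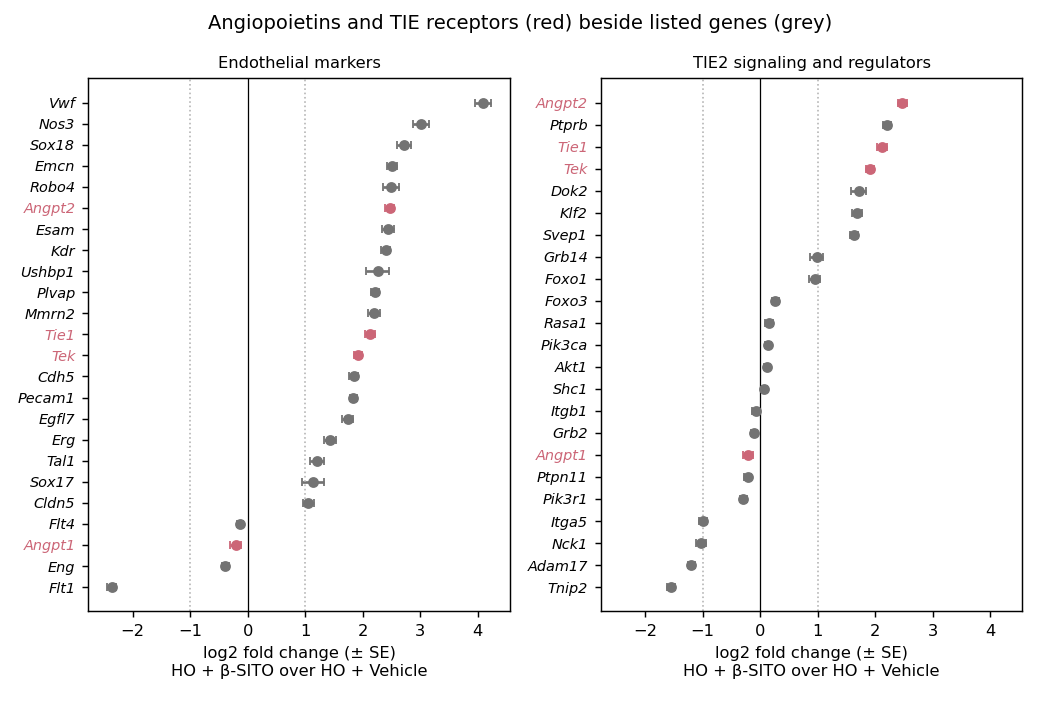
Log2 fold change (HO + β-SITO over HO + Vehicle, ± SE) of Tek, Tie1, Angpt2 and Angpt1 (red) among the tested endothelial markers (left) and among TIE2 signaling genes and regulators (right, both grey), with dotted lines at a 2-fold change. Tek, Tie1 and Angpt2 lie among the 17 endothelial markers that rose, and Angpt1 lies near 0 with Flt4 and Eng.

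Angptl2, a secreted glycoprotein linked to inflammation and tissue remodelling, was the most abundant of the 9 genes in the HO + β-SITO group. It had 164, 152 and 163 CPM in V1 to V3 and 690.5, 673 and 671 CPM in T4 to T6, and the groups were far apart. The mean rose 4.25-fold, from 160 ± 6.52 to 678 ± 10.9 CPM (SD, n = 3; log2 fold change 2.09 ± 0.06, SE). Its mean CPM was above that of 97.7% of the tested genes. The 10 fibroblast markers, summed, were 1.49-fold higher in the HO + β-SITO group and the 10 macrophage markers 2.45-fold higher, and their part in the rise of Angptl2 was not tested. The fibroblast sum was mostly that of the collagen genes Col1a1 (9100 and 12200 CPM), Col1a2 (6800 and 10220 CPM) and Col3a1 (10420 and 18850 CPM, group means), none of which was a DEG. Of the fibroblast markers 1 was a DEG higher (Dpt, a matrix protein, log2 fold change 1.84, adjusted p = 5.89e-12), while the matrix genes Dcn (-0.52, adjusted p = 7.99e-06) and Postn (-0.22, adjusted p = 0.0116) had values of the other sign and Pdgfra, a growth factor receptor, had 0.13 (adjusted p = 0.0901). Of the macrophage markers 7 were DEGs higher, led by the mannose receptor gene Mrc1 (4.79, adjusted p = 1.04e-14), and Adgre1 (-0.06) and Ptprc (-0.03) did not pass the test. Among all tested genes, 12.8% were DEGs higher. Angptl2 lies on chromosome 2 from 33106081 to 33137729 on the plus strand, inside the span of Ralgps1, with which it shares 0 exonic bases. Ralgps1 had 8.02 ± 1.07 and 6.27 ± 0.12 CPM (SD, n = 3), under 2-fold and in the other direction (log2 fold change -0.35).

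Angptl7, a secreted protein known from the cornea and the outflow tissue of the eye, had the largest change. The HO + Vehicle libraries held 2, 3 and 3 counts and the HO + β-SITO libraries 317, 269 and 310 counts, or 16.3, 15.1 and 16.1 CPM. With the HO + Vehicle group set to the floor of 3 counts per library, Angptl7 was at least 83.6-fold higher in the HO + β-SITO group. The fitted log2 fold change of 6.51 depends on the handling of such low counts and is no bound. Angptl7 lies on chromosome 4 from 148579640 to 148584917 on the minus strand, inside the span of Mtor on the plus strand, and shares 0 exonic bases with it. Mtor had 65.5 ± 6.42 and 63.1 ± 3.52 CPM (SD, n = 3), with a log2 fold change of -0.05 (adjusted p = 0.543), and the HO + Vehicle libraries with 2 to 3 counts of Angptl7 held 933 to 1125 counts of Mtor.

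Angptl4 was the gene of the 9 that fell. It had 128, 130 and 125 CPM in V1 to V3 and 11.9, 13.5 and 15.9 CPM in T4 to T6. Each HO + β-SITO library was far below each HO + Vehicle library, and the mean was 9.29-fold lower, 128 ± 2.25 against 13.8 ± 2.04 CPM (SD, n = 3; log2 fold change -3.21 ± 0.09, SE). Per kb of exon, Angptl2 over Angptl4 was 0.660 to 0.733 in V1 to V3 and 23.7 to 32.8 in T4 to T6. Angptl4 lies on chromosome 17 from 33992724 to 34000804 on the minus strand, and no other gene of the table overlaps its span.

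Of 12 tested genes on a list for the lipoprotein lipase axis, 4 were DEGs higher and 1 was a DEG lower, and the median change was 0.29 (log2). The shares are 33.3% higher and 8.33% lower, against 12.8% and 10.1% of all tested genes. Lpl, which encodes lipoprotein lipase, had 764 ± 30.8 and 913 ± 94.9 CPM (SD, n = 3), under 2-fold (log2 fold change 0.26 by edgeR, adjusted p = 0.00594). Angptl4 over Lpl, as CPM, was 0.163 to 0.174 in V1 to V3 and 0.0134 to 0.0174 in T4 to T6. Gpihbp1, the endothelial anchor of lipoprotein lipase, rose from 1.54 ± 0.08 to 18.3 ± 1.56 CPM (SD, n = 3; log2 fold change 3.56, adjusted p = 4.55e-12), and Gpihbp1 over Cdh5 was 3.29-fold higher. Lipg, which encodes endothelial lipase, fell from 67.9 ± 5.20 to 0.741 ± 0.13 CPM (SD, n = 3; log2 fold change -6.50, adjusted p = 1.23e-15). Of the proprotein convertases, which cut ANGPTL proteins and lipases, Pcsk6 had a log2 fold change of 1.79 (adjusted p = 6.29e-13) and Pcsk5 of 1.04, while Furin had -0.48 and did not reach 2-fold. Apoc1, with at most 2 counts in each HO + Vehicle library, was at least 5.21-fold higher. Of other family members, Angptl8, which also acts on lipoprotein lipase, had at most 2 counts in any library, and Angpt4 had at most 6.

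Angptl4 was also read beside lists of genes that respond to the inputs it is known for. Of 24 tested hypoxia-inducible genes, 5 were DEGs lower and 2 were DEGs higher, and the median change was -0.56 (log2). That is 20.8% lower and 8.33% higher, against 10.1% and 12.8% of all tested genes. P4ha2, a collagen prolyl hydroxylase, had -1.72 (adjusted p = 3.48e-11) and Hk2, a hexokinase, had -1.64 (adjusted p = 7.62e-10), whereas Ankrd37 had 1.72 (adjusted p = 5.94e-06) and Aldoc, an aldolase, had 1.36 (adjusted p = 1.68e-07). Vegfa (-0.40) and Bnip3 (-0.04) did not reach 2-fold. Of 19 tested PPAR target genes, 6 were DEGs higher and none were DEGs lower, with a median of 0.48, while Angptl4 was lower. Acot1, an acyl-CoA thioesterase, had 3.24 (adjusted p = 5.04e-08). Fabp4, a fatty acid binding protein, had 2.01. Plin5, a lipid droplet protein, had 2.10 ± 0.48 (SE) on few counts, 6, 2 and 4 in V1 to V3 and 14, 16 and 32 in T4 to T6. Pdk4, which like Angptl4 is used as a readout of PPAR activity, had 0.44 and did not reach 2-fold. Of 12 tested glucocorticoid receptor target genes, 5 were DEGs higher and 3 were DEGs lower. The largest decreases were those of Lcn2 (-8.49) and Mt2 (-4.64) and the largest increases, among genes with a mean of at least 20 counts, those of Cdkn1c (2.63) and Zbtb16 (1.32), while Fkbp5, a classical target, had -1.19.

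**Figure D4:**
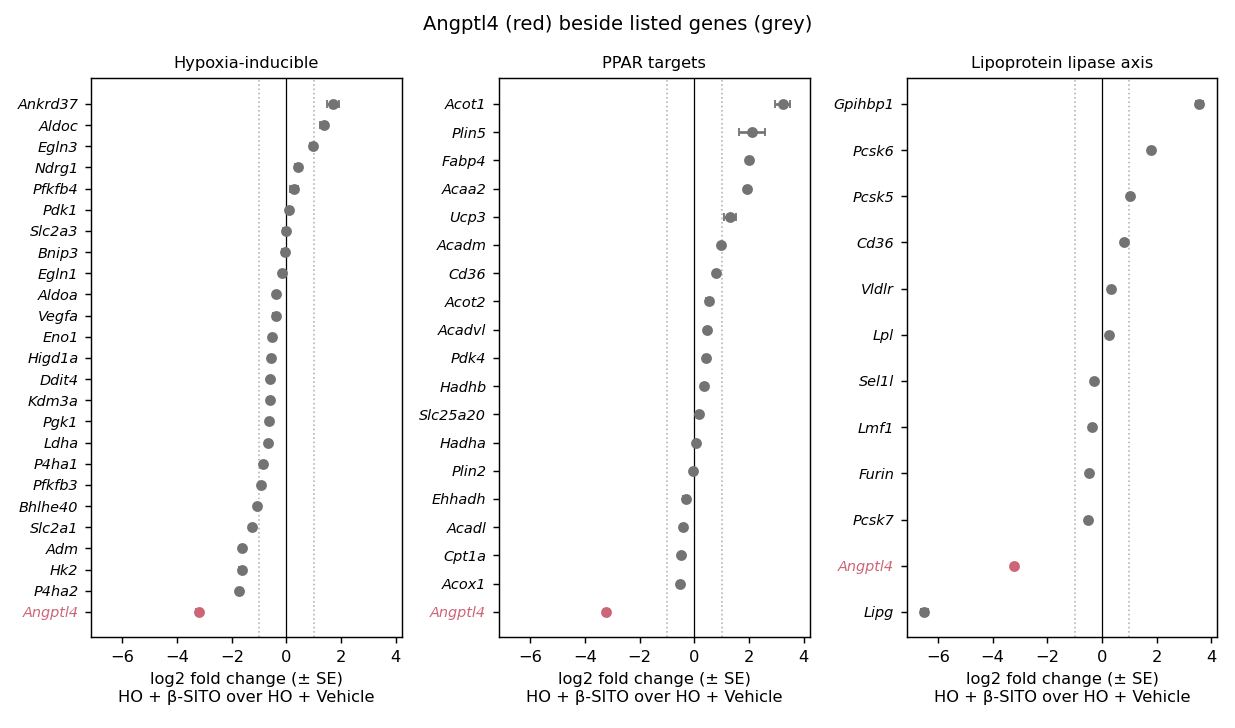
Log2 fold change (HO + β-SITO over HO + Vehicle, ± SE) of Angptl4 (red) among tested hypoxia-inducible genes (left), PPAR target genes (middle) and genes of the lipoprotein lipase axis (right, all grey), with dotted lines at a 2-fold change. Angptl4, at -3.21, lies below every listed gene of the first 2 panels and above Lipg in the third. Listed genes with at most 3 counts in each HO + Vehicle library are not drawn.

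Proteins of the ANGPTL family are also bound by integrins, syndecans and paired immunoglobulin-like receptors. The receptor list read here also holds Met, Vldlr and Cdh5, which are of other classes, and Cdh5 is on the list of endothelial markers too. Of the 9 tested genes on it, 1 was a DEG higher (Cdh5) and 2 were DEGs lower, with a median log2 fold change of -0.50. This is 11.1% higher and 22.2% lower, against 12.8% and 10.1% of all tested genes. Itgav, the integrin αv chain, fell from 947 ± 27.9 to 275 ± 3.03 CPM (SD, n = 3; log2 fold change -1.78, edgeR, adjusted p = 3.54e-13), and Sdc4, a heparan sulfate proteoglycan, had -1.58 (adjusted p = 1.53e-12). Itga5 and Itgb1, the chains of the fibronectin receptor, had -0.996 and -0.07, and the value of Itga5 was just short of 2-fold. Pirb, the mouse receptor of ANGPTL2, had 39.5 ± 3.34 and 22.1 ± 2.19 CPM (SD, n = 3), under 2-fold (log2 fold change -0.84, adjusted p = 6.69e-07). Angptl2 and its receptors Pirb and Itga5 thus had values of opposite sign.

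Angptl6 and Angptl1 were near the limit of these libraries. Angptl6, also known as angiopoietin-related growth factor, had 4, 7 and 13 counts in V1 to V3 and 29, 32 and 37 counts in T4 to T6. The groups did not overlap, but the counts were few, and the log2 fold change of 1.78 ± 0.35 (SE) ran from 1.49 to 2.33 with each library left out in turn. Angptl6 lies on chromosome 9 from 20785104 to 20791023 on the minus strand and its end overlaps that of Shfl, an interferon-induced gene on the plus strand, by 265 exonic bases or 16.8% of the exons of Angptl6. Without a stated strand setting, reads from these bases cannot be told apart. Shfl moved in the other direction, from 16.1 ± 1.44 to 7.01 ± 0.58 CPM (SD, n = 3; log2 fold change -1.20, edgeR, adjusted p = 1.37e-07). Angptl1 had 1, 0 and 3 counts against 3, 3 and 10 counts, the groups overlapped, and no difference was detectable at this depth. It lies on chromosome 1 from 156666132 to 156688648 on the plus strand, inside the span of Ralgps2, so that 4 of the 9 genes lie within a longer gene on the opposite strand.

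The order of the levels per kb of exon differed between the groups. In the HO + Vehicle group it ran Angptl4 (36.1 ± 0.64), Angptl2 (25.4 ± 1.04), Angpt2 (6.996 ± 0.89), Tek (4.70 ± 0.29), Tie1 (4.002 ± 0.64), Angpt1 (3.09 ± 0.22), Angptl6 (0.316 ± 0.18), Angptl7 (0.0773 ± 0.02) and Angptl1 (0.0292 ± 0.03), each as CPM per kb ± SD (n = 3). In the HO + β-SITO group it ran Angptl2 (108 ± 1.73), Angpt2 (38.7 ± 1.22), Tek (17.7 ± 0.69), Tie1 (17.4 ± 0.35), Angptl7 (7.35 ± 0.29), Angptl4 (3.89 ± 0.58), Angpt1 (2.67 ± 0.07), Angptl6 (1.10 ± 0.14) and Angptl1 (0.0990 ± 0.07) on the same scale. Neighbours whose libraries overlapped were Tek and Tie1 in both groups and Angptl7 and Angptl1 in the HO + Vehicle group. Angptl4 went from rank 1 to rank 6 and Angptl7 from rank 8 to rank 5. Of all counts of the 9 genes after scaling, Angptl4 took 33.7% to 35.4% in V1 to V3 and 1.13% to 1.55% in T4 to T6, and Angptl2 took 41.4% to 43.8% and 65.1% to 65.7%.

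**Figure D5:**
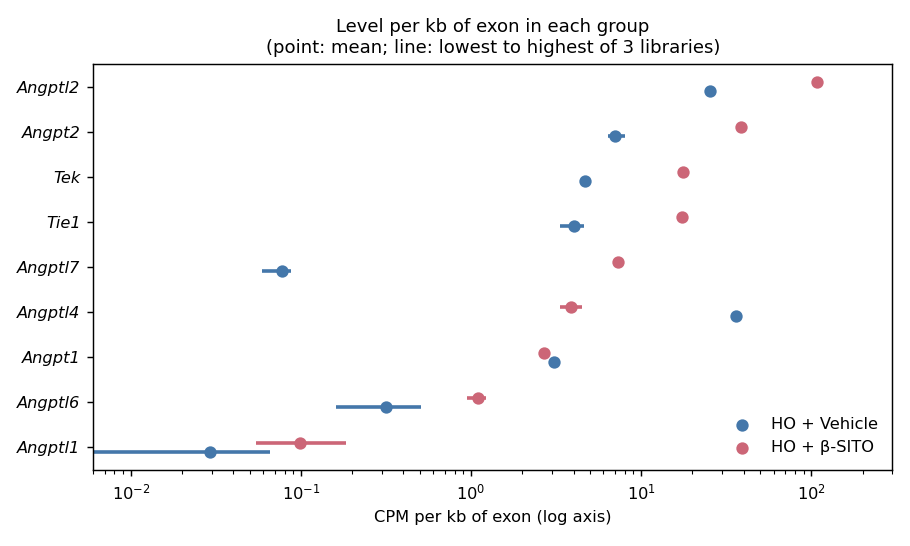
Level of each gene per kb of exon on a log axis, in blue for HO + Vehicle and in red for HO + β-SITO, with points for the mean of 3 libraries and lines from the lowest to the highest library (the blue line of Angptl1 starts at 0, off the axis). Angptl4 has the highest blue point (36.1) and Angptl2 the highest red point (108), and Tek and Tie1 stand side by side in both groups.

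For the 8 tested genes, the tested genes with the most similar pattern were found as those with the smallest root mean square difference in log2 CPM, each centred on its own mean, over the 6 libraries. Since most of the variation lies between the groups, this mainly matches the size of the change in these values. The log2 CPM held a prior count of 2, which shrinks the change of genes with few counts. Nearest to Tek were Rflnb (0.0284), Vsir (0.0365) and Ttyh3 (0.0447), and nearest to Tie1 were Bmf (0.0569), Sema6c (0.0627) and Megf6 (0.0638). For Angpt2 they were Gabra3 (0.0575), F3 (0.0634) and Nkd1 (0.0842), and for Angptl2 they were Sfrp1 (0.0388), Tmem64 (0.0460) and Gucy1b1 (0.0560). Angptl4 was nearest to Cyp27b1 (0.0889), Nog (0.104) and Plekha4 (0.106). Cyp27b1 and Nog had means of 0.14 and 0.12 CPM with β-SITO, and larger fitted log2 fold changes (-3.94 and -3.88) than Angptl4. Angptl7 was matched less closely, by Nxpe5 (0.240), Heyl (0.367) and Sost (0.401). Sost had a mean of 0 CPM in the HO + Vehicle group and a fitted log2 fold change of 9.56. Angpt1 lay nearest to Etfa (0.0153), Yrdc (0.0221) and Clpp (0.0226), and Angptl6 to Sntg2 (0.147), Tspan33 (0.170) and Irs3 (0.189).

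Markers of the mural cells that are known to make Angpt1 were also read. Of 9 tested pericyte markers, 6 were DEGs higher and none lower, where 12.8% of all tested genes were DEGs higher. Their summed level was 747 to 857 CPM against 1338 to 1542 CPM. Most of this sum was Pdgfrb (528 and 813 CPM, group means), which was not a DEG (log2 fold change 0.62). Kcnj8, a potassium channel of pericytes, had a log2 fold change of 1.99 (edgeR, adjusted p = 1.32e-07). Of 8 smooth muscle markers, 4 were DEGs higher and none lower, with 676.5 to 735 CPM against 1340 to 1589 CPM. Most of that sum was Acta2 (562 and 1114 CPM, group means), which was just short of 2-fold (log2 fold change 0.99). Cnn1, a calponin, had 2.77 (adjusted p = 1.35e-05). Cnn1 was uneven, with 2.72 CPM in T4 against 7.36 and 8.02 CPM in T5 and T6, and had 18, 11 and 13 counts in V1 to V3. T4 was also below T5 and T6 for the pericyte marker Rgs5 (19.4 against 32.8 and 34.5 CPM). The same held for the smooth muscle marker Myh11 (16.9 against 27.7 and 33.7 CPM). Angpt1 did not rise beside these lists, and the part of cell numbers in any of these values was not tested.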

How the data were processed

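RNA-seq was performed on 6 libraries of hypoxic NMCMs, grouped by the treatment in the sample titles. The authors deposited raw gene counts from featureCounts, made per the labels with FastQC and HISAT2 on GRCm39. The annotation release, the tool versions and the strand setting are not given in the sources used here. For the library kit, the labels and the paper name different products. The members and gene lists were chosen with earlier results of these data known.

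From the counts, filterByExpr, TMM and the quasi-likelihood test of edgeR 4.0.16 (R 4.3.3) were applied to all 57010 rows with the group as the only term, which left 14799 tested genes. The SE of a log2 fold change was derived from that change and its F statistic. It therefore draws on the variability of all tested genes, while each SD is that of the libraries of a group. DESeq2 1.42.0, other normalizations and filters, no fold-change cutoff and the removal of each library served as alternatives. CPM used effective library sizes, and exon lengths and shared exon bases came from GENCODE vM21 by gene identifier. Its gene models may differ from those behind the counts, whose annotation release is not given. The scripts were tested on simulated data. List genes were named by a rule: up to 2 increases and 2 decreases with the largest change per list (DEGs averaging 20 counts or more), and defining genes. Further list genes were picked after their values were seen, and Shfl for its overlap. Some listed genes are not reported here by name. Bounds used a floor of 3 counts in a library, counting error only.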

Additional observations from a re-analysis of the deposited data

How the results depend on the processing

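Leaving out each library in turn, and each other normalization, filter and test, gave 7 members called in every case, and no tested member changed direction. The names were chosen on this same comparison, which fixes this count as stated above. With a library left out, the log2 fold change of Tek was 1.88 to 1.97, that of Tie1 2.03 to 2.26, that of Angpt2 2.43 to 2.60 and that of Angptl4 -3.32 to -3.12. Library size only moved the median of all genes from -0.01 to 0.14. Without the fold-change cutoff, 9892 genes passed (4885 higher, 5007 lower), and 7 members were still called. Mtor was not called, and its log2 fold change of -0.05 turned to 0.094 with library size only and 0.0892 with upper quartile normalization, and ran from -0.1274 to 0.0294 with a library left out (0.0294 without V1). Fibroblast markers called higher were 3 with library size only, 2 with upper quartile normalization and 1 to 2 with a library left out. They were 2 without V3 or T6. With library size only, the log2 ratio of the marker sums was 0.33 for endothelial, 0.72 for fibroblast and 1.19 for smooth muscle markers. Without Flt1 and Eng, an alternative chosen after seeing the data, the log2 ratio of the endothelial sum was 1.68, and the share of Tek in it was 1.17-fold and that of Tie1 1.36-fold higher, against 3.31-fold and 3.84-fold with them. Both genes were lower with β-SITO, so leaving them out raises the ratio by construction. No paired analysis was possible because the groups share no replicate number (1 to 3 and 4 to 6). Low counts limit Angptl1 and Angptl6, and the vehicle level of Angptl7.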
